A study of Acipenser dabryanus with 12 samples.

Results

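Brain was set against liver in juvenile Yangtze sturgeon (Acipenser dabryanus), using 8 of the 12 RNA sequencing libraries analysed here, 4 per tissue. Each tissue had 1 library for each of 4 conditions: soybean oil diet before the meal, fish oil diet before the meal, soybean oil diet after the meal and fish oil diet after the meal. Every brain library was matched to the liver library of the same diet and feeding state. All fish were about 6 months old at the labelled stage and had been fed 1 of the 2 diets for 7 weeks, in 1 pond per diet. They were sampled 1 h before the daily meal at 16:00 or 1 h after it. Diet therefore cannot be told apart from pond, nor feeding state from the hour of sampling. The labels' protocols speak of 45 libraries and of 3 samples for each group and time, so what a single column of values stands for is uncertain. Whether a library holds 1 fish or a pool, and whether brain and liver came from the same fish, is not stated, so p-values measure only the spread between these libraries. Of 280408 genes of a de novo assembly, in which transcripts are built from the reads without a genome, 73754 were at 1 TPM or more in at least 2 of the 8 libraries and were compared. TPM is an abundance corrected for transcript length and scaled to the same total in every library. The sequencing depth behind these values is unknown. The limit cut through a dense range: 3489 genes had their second-highest value from 1 to under 1.1 TPM and 3891 from 0.9 to under 1 TPM, just outside it.

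In vertebrates, the liver is dominated by hepatocytes, which secrete most plasma proteins and devote much of their mRNA to a small number of secreted and metabolic products. The brain is a mixture of many neuronal and glial types, and its transcriptome is known for a large number of expressed genes, most of them at low to moderate levels in bulk tissue. The files pair no assembled gene with a name, so genes are described here by abundance, restriction and assembly group. For the same reason the tissue labels could not be checked against neuronal, glial or hepatocyte markers.

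The libraries grouped by their labelled tissue. Across the 73754 genes, Pearson's r of log2(TPM + 1) was 0.788 to 0.853 within brain, 0.858 to 0.893 within liver and 0.38 to 0.549 between matched brain and liver libraries, where genes are not independent replicates. Genes of the comparison held 91.6% to 96.7% of the TPM of a brain library and 95.3% to 98.6% of that of a liver library. Of them, 37275 were at 1 TPM or more in all 4 brain libraries, 21464 in all 4 liver libraries and 17314 in all 8.

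The first question was how evenly each tissue spreads its transcripts over genes. Liver concentrated its TPM in far fewer genes than brain. In brain, 50% of all TPM was held by 206 and 1109 genes in the soybean oil and fish oil libraries before the meal, and by 666 and 955 genes in those after it. In liver, 72 and 127 genes before the meal and 94 and 141 genes after it were enough. No liver library reached the lowest brain library. The brain library of the soybean oil diet before the meal stood nearest to liver, and the liver library of the same condition was the least even of all 8.

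**Figure D1:**
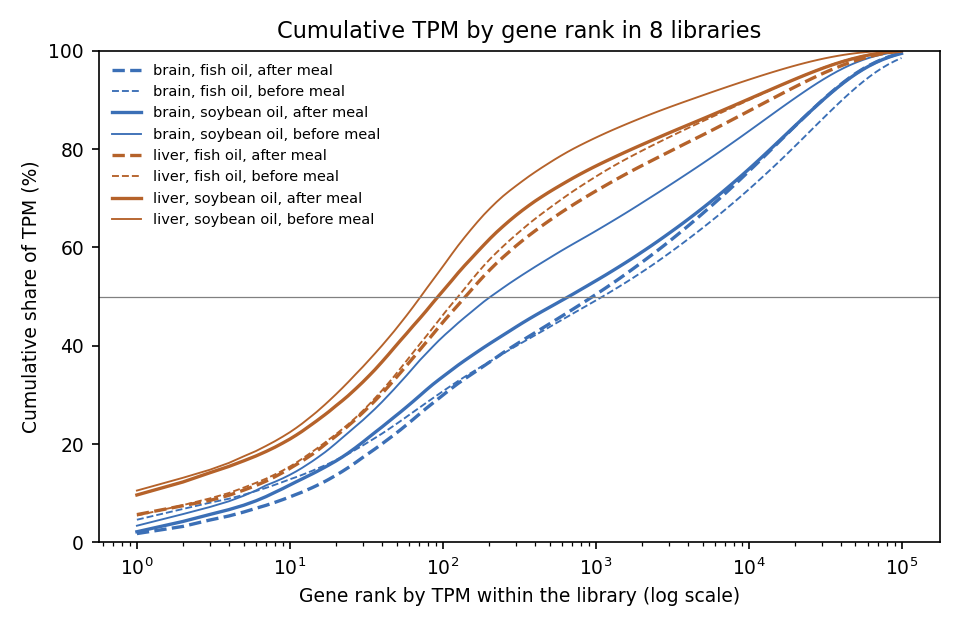
Cumulative share of TPM (vertical axis, %) against gene rank within each library (horizontal axis, log scale) for the 4 brain (blue) and 4 liver (brown) libraries, with the grey line at 50%. Liver curves cross that line at 72 to 141 genes and brain curves at 206 to 1109.

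The effective number of genes is the number of equally abundant genes that would have the same Shannon entropy. It was 3285, 8408, 6514 and 7877 in the brain libraries and 797, 1758, 1264 and 2122 in the liver libraries, each in the order soybean oil and fish oil before the meal, then the same 2 diets after it. The means were 6521 ± 2300 and 1485 ± 578 (SD, n = 4 each). Brain exceeded liver in every matched pair, at ratios of 4.12, 4.78, 5.15 and 3.71. In both tissues and both feeding states the soybean oil library had the lower effective number, an order that was not tested with 2 libraries per diet and tissue.

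The Gini coefficient over the tested genes, which is 0 when all genes are equal and nears 1 when 1 gene holds everything, was 0.845 ± 0.0303 in brain and 0.940 ± 0.0131 in liver (SD, n = 4 each). The single most abundant gene took 3.0% ± 1.28 of TPM in brain and 7.83% ± 2.65 in liver (SD, n = 4 each). The 100 most abundant genes took 34.1% ± 5.44 in brain and 49.5% ± 5.14 in liver (SD, n = 4 each). These shares did not overlap between the tissues. Brain libraries had 52435 to 78832 genes of at least 1 TPM and liver libraries 29749 to 46726. The 7 measures of detection and evenness each gave a two-sided exact permutation p of 0.0286, adjusted over the 7 to 0.0286, which is the smallest p that 4 against 4 libraries allow. Detection depended on scaling. After median-ratio scaling, described below, brain had 46234 to 68776 and liver 35540 to 51100 genes of at least 1 TPM, which overlapped, and the mean difference fell from 26316 to 13830 (adjusted exact permutation p = 0.0857). Leaving out any 1 liver library raised the adjusted p of all 7 to 0.0571 in the exact permutation test. Leaving out any 1 brain library gave 0.0667 to 0.0857 in the same exact test for the shares of the top gene and of the top 10 genes.

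**Figure D2:**
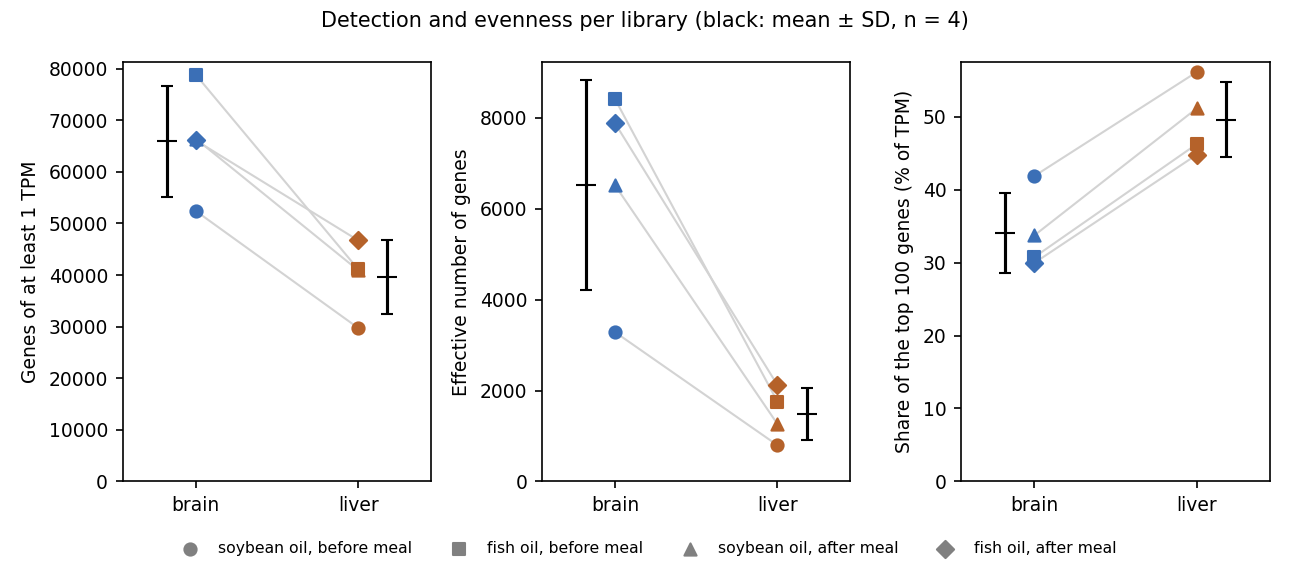
Genes of at least 1 TPM, effective number of genes and share of TPM in the 100 most abundant genes (vertical axes) in brain (blue) and liver (brown); symbols mark diet and feeding state, grey lines join matched libraries and black bars are the mean ± SD (n = 4). Every grey line falls from brain to liver in the first 2 panels and rises in the third.

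The most abundant genes recurred within each tissue and were partly shared between the tissues. Of the 100 most abundant genes, 75 were common to all 4 brain libraries and 80 to all 4 liver libraries, while 21 were common to all 8. Among the 10 most abundant, 5 recurred in every brain library, 6 in every liver library and 0 in all 8. An overlap over 8 libraries cannot exceed that over 4 of them, so these numbers do not compare directly. Ranked by tissue mean, the top 100 of brain and of liver shared 33 genes.

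The second question was which abundance classes carry this difference. The classes were 1 to under 10, 10 to under 100, 100 to under 1000, and 1000 TPM and over. Genes of 1000 TPM and over numbered 94 to 122 per brain library and 142 to 162 per liver library. They held 44.2%, 30.1%, 33.8% and 30.6% of brain TPM and 64.3%, 54.2%, 56.6% and 51.6% of liver TPM, in the order of conditions given above. Every liver library lay above every brain library in this class. The matched differences were -20.0, -24.0, -22.8 and -21.0 percentage points, brain minus liver. The exact permutation test of the tissue means, which does not use the matching, gave a two-sided p of 0.0286, adjusted over 8 class measures to 0.0381.

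Brain was richer in the 2 lower classes. Genes of 10 to under 100 TPM numbered 11207 ± 1537 in brain and 5143 ± 896 in liver (SD, n = 4 each), and held 26.7% ± 3.31 against 13.1% ± 1.99 of TPM. Genes of 1 to under 10 TPM numbered 53943 ± 9726 in brain and 33706 ± 6205 in liver (SD, n = 4 each), and held 18.5% ± 3.30 against 10.5% ± 2.03 of TPM. These 4 values had an adjusted exact permutation p of 0.0381. In the class of 100 to under 1000 TPM the tissues overlapped, with 647 to 770 genes in brain and 552 to 696 in liver (adjusted exact permutation p = 0.261) and with 17.6% ± 0.775 and 17.7% ± 1.37 of TPM (SD, n = 4 each; adjusted exact permutation p = 0.83). Leaving out any 1 liver library raised the adjusted p of the called classes to 0.0571 to 0.0762 in the exact permutation test. After median-ratio scaling, described below, the numbers of genes in the 2 lower classes no longer passed (adjusted exact permutation p = 0.0980 each), while those of 100 to under 1000 TPM did, with fewer in brain (adjusted exact permutation p = 0.0457).

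**Figure D3:**
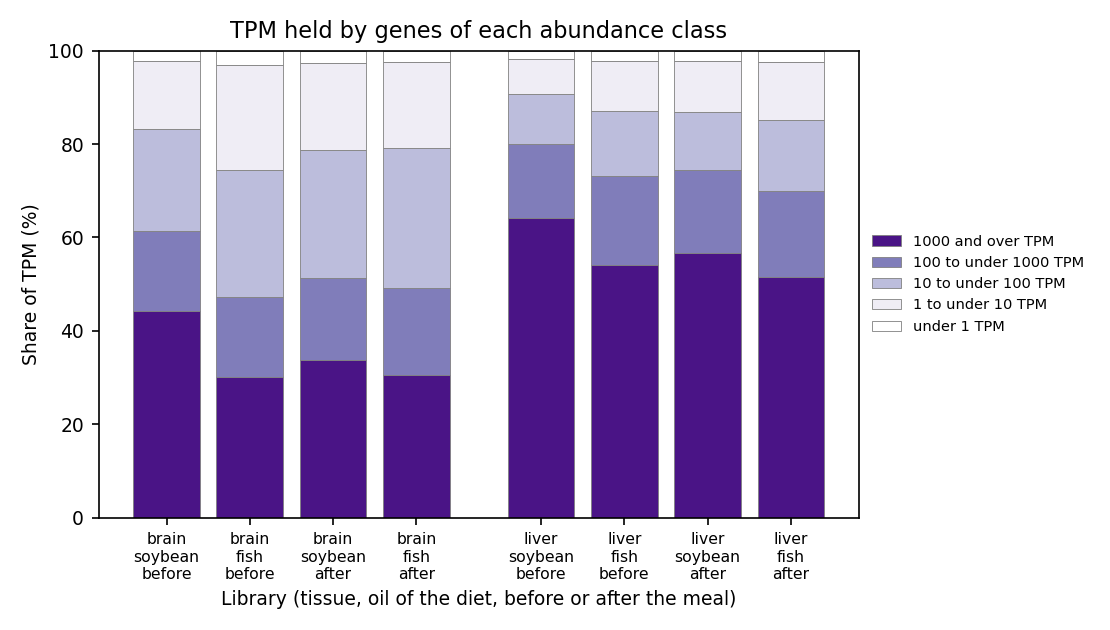
Share of TPM (vertical axis, %) held by genes of each abundance class, stacked for each of the 8 libraries (horizontal axis). The darkest part, genes of 1000 TPM and over, reaches 30.1% to 44.2% in brain and 51.6% to 64.3% in liver.

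The third question was which genes differ between the tissues. In limma on log2(TPM + 1) with the 4 conditions as matched blocks, 31869 of 73754 genes (43.2%) were higher in brain and 5535 (7.5%) were higher in liver at a Benjamini-Hochberg adjusted p under 0.05, 50.7% in either direction. A gene could enter the comparison through 1 tissue alone. Of the tested genes, 24751 were at 1 TPM or more in no liver library and 5171 in no brain library. How far the split of the calls, in all genes or by class, rests on this entry rule was not tested. The genes higher in liver were few but held much of its transcriptome: 61.2% ± 4.27 of liver TPM, against 2.47% ± 0.368 of brain TPM (SD, n = 4 each). The genes higher in brain held 72.2% ± 3.51 of brain TPM and 19.5% ± 1.75 of liver TPM (SD, n = 4 each). Both sets were chosen by their levels in these same libraries, so the direction of each contrast is fixed by the choice and was not tested. In bulk tissue, fewer cells of a type and less RNA per cell cannot be told apart. All 4 brain libraries lay above all 4 liver libraries for 30552 genes (41.4%) and below them for 4763 genes (6.46%). Of the called genes, 95.99% had one sign in all 4 matched pairs, as did 43025 of all 73754 tested genes. The calls were made on these same pairs, so this share is no support for them.

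**Figure D4:**
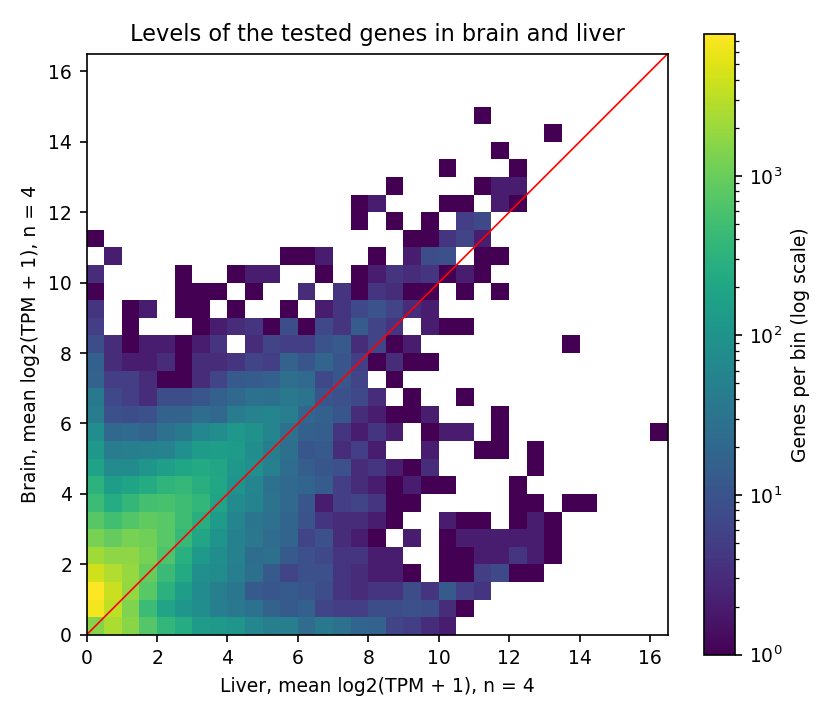
Mean log2(TPM + 1) of the 73754 tested genes in liver (horizontal axis) and brain (vertical axis), binned, with colour for the number of genes per bin (log scale) and the red line at equal levels. Most low genes lie above the line, and a separate band of genes abundant in liver lies near the bottom of the plot; 75 genes of at least 1000 TPM in liver were under 10 TPM in brain.

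The direction of the calls turned with abundance. When genes were classed by the higher of their 2 tissue means, 87.5% of the called genes of 1 to under 10 TPM were higher in brain, as were 82.5% of those of 10 to under 100 TPM and 56.9% of those of 100 to under 1000 TPM. Among the 215 genes of 1000 TPM and over, 92 were higher in brain and 103 higher in liver. Fold size followed the same order on this scale. Of called genes at least 2-fold apart (log2 fold 1), 84.8% were higher in brain, and 46.6% of those past a log2 fold of 5 were, with 395 higher in brain and 452 higher in liver. Past a log2 fold of 8 the numbers were 21 and 132. The log2(TPM + 1) scale understates the folds of low genes: with a pseudocount of 0.1, 73.5% of genes past a log2 fold of 5 were higher in brain, with 3365 against 1211, so the side of the large folds rests on that choice.

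The overall lean towards brain was also tied to scaling. TPM shares 1 total, so a gene that takes a larger part of it lowers the values of all others in that library. Whether this underlies the lean towards brain was not tested. The median gene was higher in brain by a log2 fold of 0.79 on TPM as deposited. When libraries were rescaled by the median ratio of 4612 genes of at least 5 TPM in all 8 (median-ratio scaling), the median became 0.46 and the calls 20555 higher in brain and 7988 higher in liver, or 72.0% higher in brain against 85.2% before. Quantile normalization, which forces one distribution on all libraries, gave a median of 0.067 and a split of 12483 and 11752, or 51.5%. Rescaling without the genes whose mean reached 1000 TPM gave 22825 and 7976, or 74.1%. By class, the share higher in brain among genes of 1 to under 10 TPM was 73.7% after median-ratio scaling and 45.4% after quantile normalization, and among those of 100 to under 1000 TPM it was 46.7% and 58.0%. Genes of 10 to under 100 TPM kept a majority higher in brain in these scalings, at 72.6% and 69.2%. For genes of 1000 TPM and over the share was 27.7% after median-ratio scaling and 49.5% after quantile normalization, against 47.2% on TPM as deposited.

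**Figure D5:**
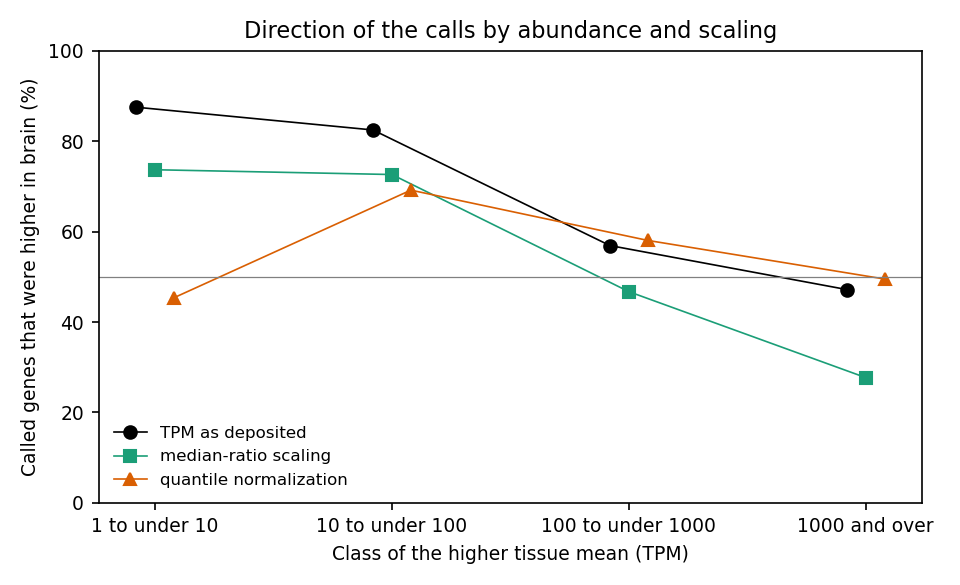
Share of called genes that were higher in brain (vertical axis, %) by the class of the higher tissue mean (horizontal axis) for TPM as deposited (black circles), median-ratio scaling (green squares) and quantile normalization (orange triangles), with the grey line at 50%. On TPM as deposited the share falls from 87.5% to 47.2%, and the lowest class changes sides only after quantile normalization, to 45.4%.

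Genes abundant in liver were mostly either abundant in brain too or low there. Of 160 genes with a liver mean of 1000 TPM and over, 58 were in the same class in brain and 5 were at 100 to under 1000 TPM there. A further 22 were at 10 to under 100 TPM, 71 at 1 to under 10 TPM and 4 under 1 TPM. Genes abundant in brain were mostly abundant in liver as well. Of 113 genes with a brain mean of 1000 TPM and over, 58 were in the same class in liver, 38 at 100 to under 1000 TPM, 9 at 10 to under 100 TPM, 1 at 1 to under 10 TPM and 7 under 1 TPM.

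The 75 liver genes of 1000 TPM and over that were under 10 TPM in brain took 25.3%, 21.4%, 25.8% and 21.5% of TPM in the liver libraries, in the order of conditions given above. In brain they summed to 180, 413, 275 and 220 TPM, with a median gene of 3.04 TPM. They were nearly as low in the spleen libraries of the study, which played no part in choosing them, where 69 of the 75 were under 10 TPM and 0 reached 100 TPM. The fish oil library before the meal was the highest of the 4 in brain and also in spleen, where these genes summed to 876 TPM against 84.1 to 214 TPM in the other 3. The source of these low values was not tested. The corresponding brain genes, 8 of 1000 TPM and over that were under 10 TPM in liver, took 0.885% to 1.42% of brain TPM and summed to 2.77 to 18.9 TPM in liver. In spleen, 7 of these 8 were under 10 TPM. The next class differed less between tissues, with 246 liver genes and 151 brain genes of 100 to under 1000 TPM that were under 10 TPM in the other tissue. These took 6.57% to 7.85% of liver TPM and 2.80% to 3.88% of brain TPM. In spleen, 236 of the 246 and 118 of the 151 were under 10 TPM.

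On the log2(TPM + 1) scale, the gene with the largest called fold of one sign in all pairs was taken for each tissue, so its fold is given as a description, with no test. TRINITY_DN131745_c1_g2 stood at 1775, 2248, 2319 and 2578 TPM in brain and at 0.37, 0.31, 0.28 and 0.34 TPM in liver, with spleen at 0.18 to 0.95 TPM. It ranked 38 to 81 among the genes of a brain library and differed little between the 4 brain libraries. It was higher in brain by 10.71 ± 0.19 in log2 units (SE). TRINITY_DN128327_c4_g2 stood at 7447, 6421, 12902 and 7803 TPM in liver and at 1.34, 7.95, 5.28 and 2.34 TPM in brain. It ranked 4 to 17 in a liver library, and its highest brain value was in the fish oil library before the meal. Brain against liver, its fold was -10.83 ± 0.36 in log2 units (SE). The rank of these folds rests on the pseudocount: with 0.1 in place of 1, fitted values of genes listed at 0 in a tissue, which are no bounds, passed them.

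A gene was called restricted when it was at 1 TPM or more in all 4 libraries of a tissue and at most at 0.1 TPM in all 4 of the other. This choice fixes the contrast, so it is given without a test. Brain had 3250 restricted genes, 8.72% of the 37275 genes at 1 TPM or more in all its libraries, and liver had 565, or 2.63% of 21464. Of these, 2125 and 439 were listed at 0 in every library of the other tissue. Near the upper limit, 577 brain genes had their highest liver value above 0.05 and up to 0.1 TPM and 481 lay above 0.1 and up to 0.15 TPM. For liver genes the numbers were 80 and 95. The numbers moved with the rule: with under 0.5 TPM allowed in the other tissue they were 6346 and 1148, and with at least 5 TPM asked of the own tissue 810 and 183. Median-ratio scaling gave 2469 for brain and 721 for liver. With each library left out, so that fewer values had to pass, brain had 3492 to 4415 and liver 601 to 843. As depth is unknown, a value of 0 does not show absence.

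Restricted genes held little of either transcriptome, and most had a low mean, as did most genes of either tissue. In brain, 2504 of them had a mean of 1 to under 10 TPM, 716 of 10 to under 100 TPM, 29 of 100 to under 1000 TPM and 1 of 1000 TPM and over. In liver the numbers were 382, 171, 11 and 1. Of all genes at 1 TPM or more in every library of the tissue, 26136 of 37275 in brain had a mean of 1 to under 10 TPM. In liver these were 15990 of 21464, so a low mean was not particular to restricted genes. Brain-restricted genes took 2.33%, 3.61%, 3.62% and 3.9% of brain TPM, lowest in the soybean oil library before the meal, which also had the fewest detected genes of the 4. Liver-restricted genes took 0.758%, 1.01%, 1.14% and 1.19% of liver TPM and were likewise lowest in the soybean oil library before the meal. The share of restricted genes in a class fell in brain from 9.58% at 1 to under 10 TPM to 4.38% at 100 to under 1000 TPM. In liver it was 2.39%, 3.65% and 1.76% in the classes from 1 to under 1000 TPM. The fixed limit of 0.1 TPM in the other tissue asks a larger fold of a more abundant gene, so nothing is read from these shares.

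The most abundant restricted gene of brain, TRINITY_DN121800_c0_g1, stood at 353, 2622, 905 and 495 TPM in the brain libraries and was listed at 0 in all 4 liver libraries. It was far from steady, with its highest value in the fish oil library before the meal. In spleen it was listed at 0 in the soybean oil library before the meal and at 10.2, 0.14 and 5 TPM in the others. The most abundant restricted gene of liver, TRINITY_DN136477_c4_g3, stood at 960, 1213, 1490 and 1894 TPM in liver and was listed at 0 in all 4 brain libraries. Both libraries after the meal lay above both libraries before it, an order not tested with 2 libraries each. In spleen it was listed at 0 in 2 libraries and stood at 4.17 and 1.46 TPM in the others.

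Few of the restricted genes reached 1 TPM in every library of spleen, which the rule did not use. Of the 3250 brain-restricted genes, 108 (3.32%) were at 1 TPM or more in all 4 spleen libraries and 1506 (46.3%) were at most at 0.1 TPM in all 4. The largest part, 1636 genes, met neither limit. Of the 34025 other genes at 1 TPM or more in all brain libraries, 24078 (70.8%) were at 1 TPM or more in all 4 spleen libraries. Of the 565 liver-restricted genes, 5 (0.885%) were at 1 TPM or more in every spleen library and 387 (68.5%) at most at 0.1 TPM in all 4. Another 173 met neither limit. The other 20899 liver genes had 15731 (75.3%) at 1 TPM or more in every spleen library. These other genes were not matched to the restricted genes in level, and their share at most at 0.1 TPM in spleen was not taken. Brain-restricted genes summed to 1449 to 1621 TPM in spleen and to 20.4 to 29.9 TPM in liver. Liver-restricted genes summed to 88.6 to 148 TPM in spleen and to 2.08 to 5.14 TPM in brain, the latter highest in the fish oil library before the meal.

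For the genes called higher in liver, spleen mostly lay nearer to brain. For those called higher in brain, it lay about as often on either side. Both are descriptions, without a test. On the mean log2(TPM + 1), spleen lay nearer to brain for 16076 of the 31869 genes higher in brain (50.4%) and nearer to liver for 15793. For the 5535 genes higher in liver, it lay nearer to brain for 4957 (89.6%). In 2625 of these 5535, spleen was below both tissues, and in 247 above both. Among the 31869 genes higher in brain, spleen was above both tissues in 7572 and below both in 3465. Both lists were chosen by their brain and liver values in these same libraries. That choice can itself affect which of the tissues spleen lies nearer to. Nearness over all tested genes was not taken, so nothing is read from 89.6% or 50.4%. Nearness was taken on TPM as deposited and was not examined after rescaling.

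Many of the most abundant genes were common to the tissues. In all 8 libraries, 34 genes were at 1000 TPM or more, of which 23 were higher in brain, 1 higher in liver and 10 not called, against 43.2% and 7.5% called higher and lower among all tested genes, and 33 of the 34 also reached this level in every spleen library. They took 16.0% to 23.2% of brain TPM and 8.09% to 12.3% of liver TPM. At 100 TPM or more in all 8 there were 222 genes, with 131 called higher in brain, 14 higher in liver and 77 not called, set against the same 43.2% and 7.5% (median log2 fold 0.76). This median was close to that of all tested genes, 0.79, and that of the 34 genes was 0.72. All these calls are on TPM as deposited. The log2 factors divided out in median-ratio scaling were 0.29 to 0.41 in brain and -0.49 to -0.22 in liver. Dividing by them lowers the log2 folds of all these abundant genes by nearly the same amount. For 2 of the 34, TRINITY_DN134879_c1_g1 and TRINITY_DN110269_c1_g1, the folds went from 0.28 to -0.44 and from -0.087 to -0.80. The split of the shared genes after scaling was not tested, so nothing is read from their lean towards brain.

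The 2 genes with the highest smaller tissue mean among those not called are given as examples of uncalled genes only. TRINITY_DN134879_c1_g1 stood at 6951, 5323, 7563 and 5378 TPM in brain and at 8388, 4008, 3971 and 5243 TPM in liver. The tissues overlapped, with a difference of 0.28 ± 0.24 in log2 units (SE; adjusted p in limma = 0.355), which turned to -0.44 after median-ratio scaling. TRINITY_DN110269_c1_g1 stood at 6517, 4430, 4115 and 3506 TPM in brain and at 6692, 4666, 3675 and 4620 TPM in liver. Its log2 fold was -0.087 ± 0.18 (SE; limma adjusted p = 0.710) on TPM as deposited, 0.37 after quantile normalization and -0.80 after median-ratio scaling, where it passed the threshold (limma adjusted p = 0.00817). These values do not show equal expression.

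Assembled genes are grouped by Trinity into components, sets of related contigs that can hold copies, isoforms or fragments of a gene. Of 5941 components with at least 2 called genes, 730 (12.3%) held at least 1 called higher in brain and at least 1 called higher in liver. Among all called genes, 85.2% were higher in brain. The share for unrelated called genes was not taken, so 12.3% is not read as many or few. In 16 of these, genes at a log2 fold of at least 3 stood on both sides. When the tested genes of a component were summed, 365 of the 730 were within 2-fold between the tissue means. On sums over all assembled genes of a component, tested or not, limma called 161 of the 730 higher in brain, 218 higher in liver and 351 not at all. Among all 57479 summed components tested, 25108 were called higher in brain and 3876 higher in liver. The 730 were chosen by their calls, so nothing is read from this split. In 10 components a brain-restricted gene stood beside a liver-restricted one, among 2927 components with a brain-restricted and 544 with a liver-restricted gene. Whether such genes are isoforms, paralogs or fragments was not tested.

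The last question was whether the tissue difference itself changed with diet or feeding state. The 4 matched differences of a gene usually had one sign when the gene was abundant: this held for 58.8% of genes of 1 to under 10 TPM, 84.5% of 10 to under 100 TPM, 90.7% of 100 to under 1000 TPM and 94.0% of 1000 TPM and over, by the higher tissue mean. Their range across the 4 conditions was much the same in each class, with a median of 1.09 to 1.31 on the log2 scale, while the median size of the tissue fold rose from a log2 value of 0.98 to 4.83. On log2(TPM + 1) the higher mean, which sets the class, also limits how large a fold can be. The rise in fold size and in the share of one sign is thus partly built in, and nothing is read from it. The median difference of all genes was 0.68, 0.91, 0.83 and 0.73 in the 4 conditions. In limma on the matched differences, 0 of 73754 genes (0.0%) were called for diet and 0 (0.0%) for feeding state. At an unadjusted p under 0.05 there were 3725 (5.05%) and 5767 (7.82%) genes, and the lowest limma adjusted p were 0.980 and 0.630. The alternative fits made 0 calls as well. This test has 1 residual degree of freedom per gene, so 0 calls show nothing about the presence or absence of such differences.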

How the data were processed

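The authors' deposited values are TPM (transcripts per 1000000) for each assembled gene, rounded to 2 decimals; this unit was read from the values, which total 999993 to 1000000 in a library. Reads of 125 bp (paired-end) were cleaned and assembled with Trinity, per the labels' protocols, which mention only liver dissection although 3 tissues are labelled; the quantification tool and pooling are not given in the sources used here. Libraries were grouped by labelled tissue and matched by diet and feeding state. In R 4.3.3, limma 3.58.1 with trend and robust options fitted log2(TPM + 1) of genes that reached 1 TPM in 2 or more of the 8 libraries: tissue plus 4 matched conditions, 3 residual degrees of freedom, Benjamini-Hochberg threshold 0.05. The matching was by design: deviations from the tissue means of matched libraries correlated at -0.047 to 0.083 across genes. The test of the tissue difference by diet or feeding state used the 4 matched differences. Values per library were compared with exact permutation tests over 70 assignments, two-sided by the size of the difference and without the matching. Python 3.11.15, numpy 2.4.6, pandas 2.3.3 and matplotlib 3.10.9 were used.

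Named genes were the most abundant restricted gene of each tissue, the largest called fold on log2(TPM + 1) in each direction with one sign in all pairs, and the 2 uncalled genes with the highest smaller tissue mean. Genes, rules and lists were chosen with earlier results of these data known. No marker list could be used, as no gene has a name, and count models were not used, as the values are not counts. Counting error cannot be had from TPM, and 66.1% of tested IDs shared a component with another ID, between which reads can be divided. The fits were tried on simulated data in which 200 of 73754 genes were changed. The tissue fit called 1 of 50 genes at a log2 change of 1 and 17 of 50 at 2. It called 33 of 50 at 4 and 47 of 50 at 8, with 3 false calls. The fits by diet or feeding state called 0 of 50 at every size up to 8. Far more genes were called in the real data, so these shares do not carry over to it. Alternatives were the fit without matching, additive diet and feeding terms, all 12 libraries, 3 scalings, other filters, another pseudocount, plain empirical Bayes, summed components, other limits and each library left out.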

Additional observations from a re-analysis of the deposited data

Results flagged for a closer look

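In 1 of 54 groups of 4 values examined, 1 library stood far from the other 3; chance gives about 1 in 20 for independent normal values. TRINITY_DN128327_c4_g2, the liver gene with the largest called fold at a pseudocount of 1, stood at 17.4 TPM in spleen with fish oil before the meal and at 2.38 to 2.74 TPM in the other spleen libraries. In brain its highest value, 7.95 TPM, was in the library of the same condition.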

How the results depend on the processing

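Called genes numbered 31869 higher and 5535 lower in brain. They were 12483 and 11752 after quantile normalization, 21150 and 3620 with no filter, and 10641 and 2523 with a mean of at least 5 TPM, where fewer genes were tested. Median-ratio scaling gave 20555 higher. Past a log2 fold of 5, the genes higher in brain were 256 after quantile normalization and 261 after median-ratio scaling against 395; a pseudocount of 0.1 gave 3365 higher and 1211 lower. The cause was not tested. Without the matching (no replicate block) the calls were 32947 and 5638; additive terms, all 12 libraries, plain empirical Bayes and summed components stayed within 1.5 times of the main counts, as did each left-out library (22898 to 27085 higher, 4023 to 4862 lower).

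Median-ratio scaling, applied to detection after seeing the data, lowered the difference in genes of at least 1 TPM to 13830 and its call was lost. It made the difference in genes of 1 to under 10 TPM 12389, of 10 to under 100 TPM 1774 and of 100 to under 1000 TPM -231, brain minus liver. Restricted genes of brain numbered 2125 when listed at 0 in liver, 6346 at under 0.5 TPM, 810 at 5 TPM or more in brain and 1893 for components; liver had 1148, 183 and 264 under the last 3 of these. TRINITY_DN110269_c1_g1 changed sign to 0.37 after quantile normalization and to 0.017 without the brain or the liver library of the fish oil diet after the meal, and TRINITY_DN134879_c1_g1 to -0.44 after median-ratio scaling; neither was called in these fits. Over all left-out libraries, TRINITY_DN110269_c1_g1 ranged from -0.17 to 0.017. Median-ratio scaling alone brought it past the threshold, at -0.80. In the matched limma fit, leaving out either library of a pair gives the same log2 fold. For folds, the left-out fits are therefore checks of 4 pairs and not of each library.

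With each library left out, differences of brain minus liver ranged from 22022 to 30821 detected genes, 501 to 802 genes holding 50% of TPM, 4407 to 6114 effective genes and -0.109 to -0.0852 in the Gini coefficient. In percentage points they were -5.62 to -3.93 for the top gene, -7.74 to -5.29 for the top 10 and -18.1 to -13.3 for the top 100. Genes per class differed by 16070 to 23982 (1 to under 10 TPM), 5666 to 6815 (10 to under 100 TPM) and -54.4 to -45.1 (1000 TPM and over), and shares of TPM by 6.72 to 9.41, 12.5 to 15.1 and -25.1 to -19.4 percentage points. No difference of these changed sign, though some exact p-values rose above 0.05 with 7 libraries. The class of 100 to under 1000 TPM, not called on TPM as deposited, is not among them. Its difference ranged from 37.5 to 85.5 genes and from -0.804 to 0.245 percentage points of TPM, where the sign changed.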
